A study of Mus musculus with 6 samples.

Results

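The 9 genes described here encode scaffolds and adhesion proteins of the junctions that hold epithelial cells together. They were taken by mouse symbol, as tight junction (Tjp1, Tjp3, Ocln, Marveld2, F11r), adherens junction (Cdh1), and desmosome genes (Dsg2, Dsc2), with Jup, which sits in both of the latter. All 9 were among the 27546 genes listed, and all 9 passed the minimum of a mean of 0.5 FPKM, as did 14657 genes in total. FPKM corrects the number of sequenced fragments for library depth and for the length of each gene, so levels can be compared between genes. RNA was from distal colon of 3 Gm31629-/- mice and 3 WT littermates on the C57BL/6J background, with 1 library per mouse. The Gm31629-/- mice are homozygous for a genomic deletion of the long noncoding RNA gene Gm31629. All 6 mice were 8 weeks old, drank 3% DSS (dextran sulfate sodium, which damages the lining of the colon) for 7 days, and were sacrificed on day 8. Both groups therefore shared the injury, no untreated mice were included, and the level of Gm31629 itself was not analysed here.

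Tight junctions seal the space between neighboring epithelial cells near the lumen and set how much the barrier leaks. Adherens junctions beneath them couple E-cadherin through catenins to actin, and desmosomes couple desmosomal cadherins through plakoglobin and plakophilins to keratin filaments. In the colon these structures keep luminal bacteria away from the mucosa. Their RNAs come mainly from epithelial cells there, although ZO-1 and JAM-A are also known from endothelium.

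Markers of several cell types differed between the genotypes. The 15 epithelial markers summed to 12531 to 13673 FPKM in WT and 7478 to 9031 FPKM in Gm31629-/- mice, without overlap. Of these, 0 were called higher and 9 lower in Gm31629-/- mice, where a call is a Benjamini-Hochberg adjusted p under 0.05 by limma over all 14657 genes. The 12 smooth muscle markers summed to 25.7 to 45.8 FPKM in WT and 1323 to 2050 FPKM in Gm31629-/- mice, and Acta2, the smooth muscle actin, was at 5.01, 14.2, and 5.53 FPKM in WT mice 1 to 3 against 641, 579, and 453 FPKM. Markers of fibroblasts (26.8 to 48.9 against 274 to 790 FPKM), endothelium (9.74 to 21.4 against 104 to 313 FPKM), leukocytes (29.7 to 40.3 against 338 to 736 FPKM), enteric neurons and glia (2.80 to 5.38 against 35.3 to 123 FPKM), and adipocytes (14.9 to 59.3 against 151 to 526 FPKM) were lower in the WT libraries in the same way. The 9 listed squamous markers summed to 1.18 to 1.32 against 1.93 to 4.92 FPKM, so markers of stratified epithelium were close to 0 in both groups. The WT libraries thus held little RNA of the muscle and connective tissue of the colon wall, and a difference between the genotypes cannot be told apart from a difference in the pieces of tissue taken, which bears on every comparison of the genotypes here. The part of these differences in the junction values was not tested, and in bulk tissue fewer epithelial cells and less RNA per epithelial cell cannot be told apart. Gm31629-/- mouse 1 also stood apart by transcripts of the Y chromosome (Eif2s3y 15.4 FPKM, against 0 in the other 5 libraries) and by Xist at 0.00606 FPKM, against 8.35 to 13.8 FPKM, while the methods give male mice.

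**Figure D1:**
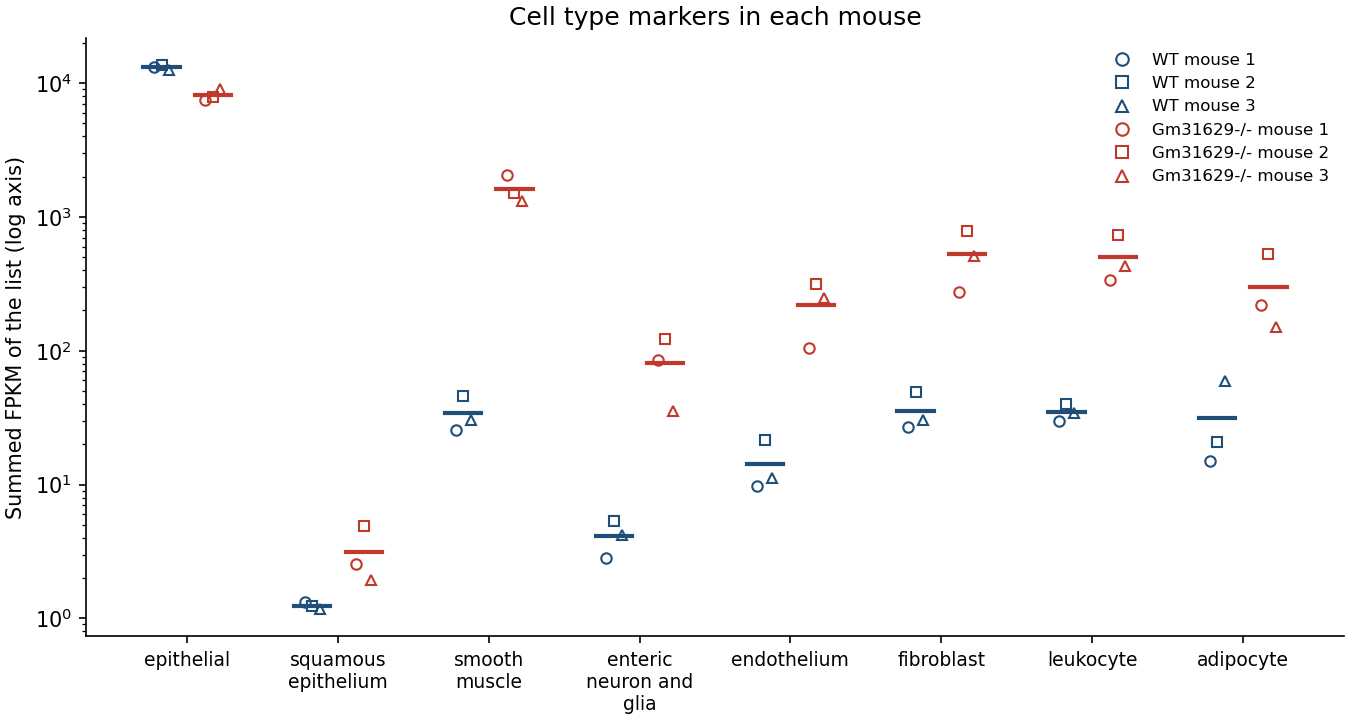
Summed FPKM of 8 cell type marker lists (log axis) for each mouse, WT in blue and Gm31629-/- in red, with symbols for mouse number and a bar at the group mean. The epithelial sum is 12531 to 13673 FPKM in WT and 7478 to 9031 FPKM in Gm31629-/- mice, and the smooth muscle sum is 25.7 to 45.8 against 1323 to 2050 FPKM.

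Of the 9 junction genes, 4 were called lower in Gm31629-/- mice (Dsc2, Tjp3, Marveld2, and Jup) and 0 were called higher, at an adjusted p under 0.05. Over all 14657 genes, 14.6% were called lower and 28.9% higher. The median log2 fold change, always given as Gm31629-/- minus WT on the log2(FPKM + 1) scale, was -0.16 over the 9 genes and 0.15 over all genes tested. With an unadjusted p under 0.05, 2 of the 9 were higher (Ocln and Tjp1) and 4 lower, against 33.9% and 18.9% of all genes tested. On recovered fragments limma's voom called 0 higher and 4 lower. For 6 of the 9 genes no value of 1 group fell within the range of the other, against 57.8% of all genes tested. When libraries were rescaled by their median ratio, the median of all genes moved from 0.15 to -0.06 and the share of higher genes among all calls fell from 66.5% to 49.2%, while 0 junction genes were called higher and 4 lower on that scale too. Median-ratio log2 fold changes of the genes not called were 0.33 for Ocln, 0.21 for Tjp1, 0.04 for F11r, -0.30 for Cdh1, and -0.41 for Dsg2. As deposited and without Gm31629-/- mouse 1, limma adjusted p values were 0.0243 for Tjp3, 0.0119 for Marveld2, 0.00358 for Dsc2, and 0.0479 for Jup.

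**Figure D2:**
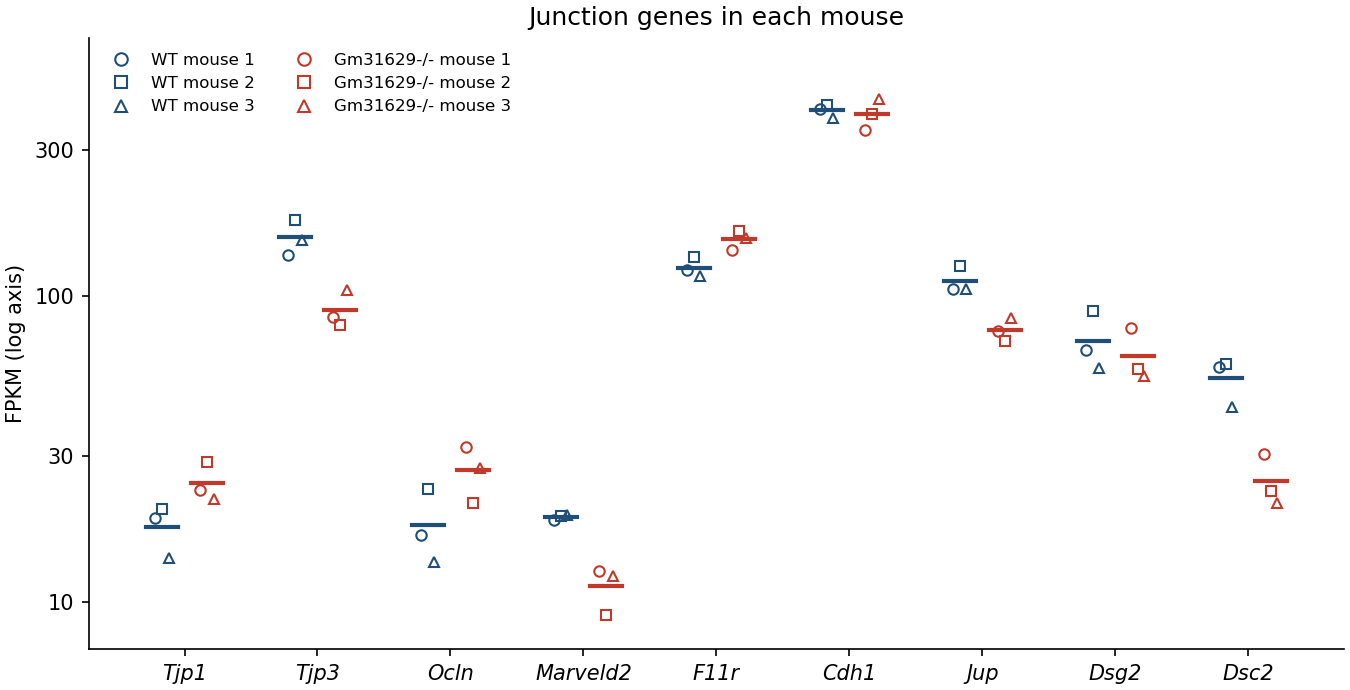
FPKM (log axis) of the 9 junction genes in each of the 6 mice, WT in blue and Gm31629-/- in red, with symbols for mouse number and a bar at the group mean. Tjp3, Marveld2, Jup, and Dsc2 have all 3 Gm31629-/- mice under all 3 WT mice, Tjp1 and F11r have all 3 above, and Ocln, Cdh1, and Dsg2 overlap.

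The promoters of 4 tight junction genes are shown because they form pairs of like proteins, Ocln with Marveld2 and Tjp1 with Tjp3, whose members had log2 fold changes of opposite sign. Each sequence is the RefSeq window (GRCm38.p6) from 250 bases before to 50 bases from the outermost listed start, read 5′ to 3′ on the gene's strand. The RefSeq start of Tjp1 lies inside the longer gene that GENCODE M21 annotates. Capitals mark CAGGTG or its reverse CACCTG, the E-box bound by repressors of the Snail and Zeb families, a class of factors known for acting on epithelial adhesion genes. Such a match is a description of the letters and not a measured binding site.
Ocln (chr13:100552669-100552968, minus strand): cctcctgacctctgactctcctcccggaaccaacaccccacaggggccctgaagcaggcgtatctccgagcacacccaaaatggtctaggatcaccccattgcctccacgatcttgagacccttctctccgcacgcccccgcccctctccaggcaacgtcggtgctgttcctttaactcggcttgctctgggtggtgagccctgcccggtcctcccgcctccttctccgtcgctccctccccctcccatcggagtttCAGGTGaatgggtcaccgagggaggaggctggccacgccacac
Marveld2 (chr13:100616922-100617221, minus strand): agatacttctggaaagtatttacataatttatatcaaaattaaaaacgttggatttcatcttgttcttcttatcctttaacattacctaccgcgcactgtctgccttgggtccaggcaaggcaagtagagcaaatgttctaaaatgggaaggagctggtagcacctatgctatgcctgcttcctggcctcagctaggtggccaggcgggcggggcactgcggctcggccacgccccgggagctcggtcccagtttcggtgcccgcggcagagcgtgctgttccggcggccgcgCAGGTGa
Tjp1 (chr7:65371195-65371494, minus strand): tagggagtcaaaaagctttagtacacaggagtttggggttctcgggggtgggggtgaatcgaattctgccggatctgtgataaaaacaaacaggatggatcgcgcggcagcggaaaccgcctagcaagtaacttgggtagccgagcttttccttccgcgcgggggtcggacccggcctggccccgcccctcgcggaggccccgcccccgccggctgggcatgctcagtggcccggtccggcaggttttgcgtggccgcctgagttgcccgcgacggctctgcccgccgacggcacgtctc
Tjp3 (chr10:81291532-81291831, minus strand): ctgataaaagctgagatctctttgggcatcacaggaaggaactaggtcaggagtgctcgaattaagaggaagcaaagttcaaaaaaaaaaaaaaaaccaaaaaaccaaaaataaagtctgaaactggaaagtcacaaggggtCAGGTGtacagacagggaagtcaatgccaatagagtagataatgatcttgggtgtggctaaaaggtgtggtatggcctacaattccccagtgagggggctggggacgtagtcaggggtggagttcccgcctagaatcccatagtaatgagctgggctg
RefSeq windows were found for 6 of the 9 genes. The E-box stood in the windows of Ocln (7 bases after the start), Marveld2 (43 bases after), Tjp3 (108 bases before), and F11r (122 bases before), and not in those of Tjp1 and Jup, so 4 of 6 held it, against 20.2% of 32851 promoter windows of the same length. The motif GGGCGG or its reverse, a GC box, was found in 5 of the 6 windows and in 35.7% of all windows, and AACCGG or its reverse, the core of the Grainyhead site, in 0 of the 6 and 6.8% of all.

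Tjp1 and Tjp3 encode ZO-1 and ZO-3, the PDZ-domain scaffolds that bind claudins and occludin on the inner face of the tight junction. Tjp3 (ENSMUSG00000034917, chr10:81273207-81291581, minus strand) was at 136, 177, and 153 FPKM in WT mice 1 to 3 and at 85.6, 80.5, and 105 FPKM in Gm31629-/- mice 1 to 3. All 3 Gm31629-/- mice were under all 3 WT mice. Its log2 fold change was -0.78 (SE 0.17, limma adjusted p = 0.0101), and the group mean of 90.3 ± 12.9 FPKM (SD, n = 3) was 58.1% of the WT mean of 155 ± 20.7 FPKM (n = 3). Exons of Tjp3 share 40 bases (1.1%) with the opposite-strand gene Apba3. Tjp1 (ENSMUSG00000030516, chr7:65296165-65527781, minus strand) was at 18.8, 20.2, and 13.9 FPKM in WT and 23.2, 28.7, and 21.6 FPKM in Gm31629-/- mice. The groups did not overlap and the Gm31629-/- mice were the higher ones, yet the difference of 0.46 on the log2 scale (95% interval 0.02 to 0.90) did not pass (limma adjusted p = 0.0843).

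Ocln and Marveld2 encode occludin and tricellulin, membrane-spanning proteins of the MARVEL family. Occludin lines the contacts of cell pairs and tricellulin gathers where 3 cells meet. The genes are neighbors on chromosome 13 on the same strand, 43.2 kb apart with no protein-coding gene annotated between them. Marveld2 (ENSMUSG00000021636, chr13:100595957-100616971) was at 18.6, 19.1, and 19.3 FPKM in WT mice and at 12.6, 9.08, and 12.2 FPKM in Gm31629-/- mice. Its values in WT mice had a coefficient of variation of 2.02%, under the counting error of 2.86% to 2.93% at these depths, so their closeness is not resolved. All 3 Gm31629-/- mice were lower. It differed by -0.72 on the log2 scale (SE 0.16, limma adjusted p = 0.0110), with means of 19.0 ± 0.384 and 11.3 ± 1.91 FPKM (SD, n = 3 each). Ocln (ENSMUSG00000021638, chr13:100496507-100552718) was at 16.5, 23.4, and 13.5 FPKM in WT and at 32.1, 21.1, and 27.5 FPKM in Gm31629-/- mice. WT mouse 2 exceeded Gm31629-/- mouse 2, so the groups overlapped. The log2 fold change of Ocln was 0.58 (SE 0.24, 95% interval 0.02 to 1.15, limma adjusted p = 0.0846), and without WT mouse 2 it was 0.79 with an adjusted p of 0.0415 by the same limma fit.

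F11r encodes JAM-A, an immunoglobulin-type adhesion molecule of the tight junction. F11r (ENSMUSG00000038235, chr1:171437535-171464603, plus strand) was at 122, 134, and 116 FPKM in WT and 142, 164, and 155 FPKM in Gm31629-/- mice. The Gm31629-/- values were all above the WT values, and spread within groups was small (7.38% and 7.17% as coefficients of variation). A log2 fold change of 0.30 (SE 0.14, 95% interval -0.02 to 0.63, limma adjusted p = 0.113) did not pass. As with Tjp1, the direction was that of the endothelial, smooth muscle, fibroblast, leukocyte, neuron and glia, and adipocyte markers given above, whose part was not tested.

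Cdh1 encodes E-cadherin, the calcium-dependent adhesion protein that starts cell contacts and holds adherens junctions. Cdh1 (ENSMUSG00000000303, chr8:106603351-106670246, plus strand) was at 410, 421, and 383 FPKM in WT and at 349, 394, and 441 FPKM in Gm31629-/- mice. The lowest and the highest of the 6 values both belonged to Gm31629-/- mice, which enclosed the WT range. The log2 fold change was -0.04 (SE 0.16, 95% interval -0.41 to 0.33, limma adjusted p = 0.844). The interval takes the deposited scaling as given, and median-ratio scaling gave -0.30 (limma adjusted p = 0.211). As deposited and without Gm31629-/- mouse 1 the log2 fold change was 0.04. Epcam, another adhesion protein of the epithelium, was not called either, at 1141, 1164, and 1007 FPKM in WT and 1179, 990, and 1158 FPKM in Gm31629-/- mice (log2 fold change 0.01, adjusted p = 0.982), while Krt8 was at 4204, 4332, and 4058 FPKM in WT and at 1650, 2144, and 2334 FPKM in Gm31629-/- mice (log2 fold change -1.05, adjusted p = 0.00777). Of the 15 epithelial markers, which include Epcam and Krt8, 9 were called lower, 0 higher, and 6 were not called, with a median of -0.70. By the root mean square difference of centered log2 values over the 6 libraries, the genes most like Cdh1 among 7241 others with a mean of at least 5 FPKM were Bloc1s3 (0.0411), H3f3a (0.0465), Psenen (0.0598), Necap2 (0.0635), and Dnajc14 (0.0709). Of the other junction genes F11r came nearest to Cdh1, at 0.192 and rank 909, and Dsc2 was farthest, at 0.591 and rank 5460. The distance is not scaled by spread, so it is small between genes that change little. The 5 genes nearest to Cdh1 had log2 fold changes of -0.11 to 0.004, and shared regulation was not tested.

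Jup encodes plakoglobin, the armadillo-repeat protein that binds cadherin tails in desmosomes and can replace β-catenin in adherens junctions. Jup (ENSMUSG00000001552, chr11:100368958-100397763, minus strand) was at 105, 126, and 105 FPKM in WT and at 76.9, 71.4, and 84.8 FPKM in Gm31629-/- mice. The groups did not overlap and the Gm31629-/- mice were lower. Jup differed by -0.52 on the log2 scale (SE 0.15, limma adjusted p = 0.0251). This call was lost without any 1 of the WT mice, with limma adjusted p values of 0.0594, 0.0847, and 0.0668 without WT mouse 1, 2, and 3 and log2 fold changes of -0.56, -0.44, and -0.56.

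Dsg2 and Dsc2 encode desmoglein 2 and desmocollin 2, the desmosomal cadherins of simple epithelia, which bind across the gap between cells. Both genes lie on chromosome 18, 498.5 kb apart within the cluster of desmosomal cadherin genes. Dsc2 (ENSMUSG00000024331, chr18:20030633-20059554, minus strand) was at 58.7, 60.1, and 43.5 FPKM in WT and at 30.5, 23.1, and 21.1 FPKM in Gm31629-/- mice. The highest Gm31629-/- mouse was under the lowest WT mouse. Dsc2 had the lowest fold change of the 9 genes, at -1.09 on the log2 scale (SE 0.20, limma adjusted p = 0.00508), and its mean of 24.9 ± 4.96 FPKM (SD, n = 3) was 46.0% of the WT mean of 54.1 ± 9.22 FPKM (n = 3). It was the 1 gene of the 9 called with a log2 fold change under -1, as were 4.64% of all genes tested.

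Dsg2 (ENSMUSG00000044393, chr18:20558074-20604521, plus strand) was at 66.5, 89.1, and 58.1 FPKM in WT and at 78.5, 57.8, and 54.7 FPKM in Gm31629-/- mice. The ranges overlapped over most of their length. The log2 fold change was -0.16 (SE 0.21, 95% interval -0.66 to 0.35, limma adjusted p = 0.583), and without WT mouse 2 it was 0.02. An antisense gene, Gm16090, shares 330 bases (4.0%) of the Dsg2 exons, and whether counting used strand is not given in the sources used here. The other desmosomal cadherins were close to 0, with Dsg1b, Dsg3, Dsg4, and Dsc3 each making up at most 0.470% of the summed FPKM of the 6 listed cadherins. Dsg2 made up 53.1% to 59.7% of that sum in WT and 71.0% to 71.8% in Gm31629-/- mice, and Dsc2 made up 40.3% to 46.9% and 27.8% to 28.3%.

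Cdh1 had the highest level in both genotypes, apart from all others. In WT mice the order of mean FPKM was Cdh1 (405), Tjp3 (155), F11r (124), Jup (112), Dsg2 (71.3), Dsc2 (54.1), Marveld2 (19.0), Ocln (17.8), and Tjp1 (17.6), and F11r with Jup, Dsg2 with Dsc2, Marveld2 with Ocln, and Ocln with Tjp1 overlapped. In Gm31629-/- mice it was Cdh1 (395), F11r (153), Tjp3 (90.3), Jup (77.7), Dsg2 (63.7), Ocln (26.9), Dsc2 (24.9), Tjp1 (24.5), and Marveld2 (11.3), and Tjp3 with Jup, Jup with Dsg2, Ocln with Dsc2, and Dsc2 with Tjp1 overlapped. Marveld2 was thus last in Gm31629-/- mice, apart from its neighbor in the order, while in WT it could not be told from Ocln. Between 567 fragments (Marveld2, Gm31629-/- mouse 2) and 37091 fragments (Cdh1, Gm31629-/- mouse 3) stood behind each value. Counting error at the lowest of these was 4.20% of the value, below the spread among the Gm31629-/- mice for that gene (coefficient of variation 16.9%).

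The junction genes were also set beside the epithelial markers of each library. The mean log2(FPKM + 1) of the 15 epithelial markers was subtracted from every gene in that library, and the fit over all genes was repeated. The markers themselves had log2 fold changes from -3.14 (Cdx2) to 0.51 (Tspan8), with a median of -0.70. Their mean and not their median was subtracted, which moved the log2 fold change of Cdh1 from -0.04 to 0.76. Cdx2 lay farthest from the other markers. The size of the subtracted value therefore depends on the markers chosen, and the only other choice tried left out the keratins. Cdx2 was kept in both choices, and how far the calls on this scale rest on Cdx2 was not tested. On the scale relative to the markers 5 of the 9 genes were called higher in Gm31629-/- mice (Ocln, Tjp1, F11r, Cdh1, and Dsg2) and 0 lower. All genes shifted in the same direction, with 68.5% of genes called higher and 1.81% lower, and with a median of 0.95 against 0.65 for the 9 junction genes, so the 55.6% of members called higher was not above the background. Since the same value was subtracted from every gene of a library, the order of the members was kept by construction, from -0.29 (Dsc2) to 1.39 (Ocln).

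Relative to the markers, Ocln was at -4.92, -4.52, and -5.13 in WT and -3.26, -3.60, and -3.54 in Gm31629-/- mice on the log2 scale, and its groups no longer overlapped. The share of all genes without overlap on this scale was not counted, so the separation of Ocln has no background to be set against. The difference for Ocln was 1.39 (SE 0.22, limma adjusted p = 0.000594), and for Tjp1 it was 1.26 (SE 0.23, adjusted p = 0.00131). Relative F11r was at -2.11, -2.05, and -2.11 in WT and at -1.15, -0.71, and -1.09 in Gm31629-/- mice, a difference of 1.11 (SE 0.19, limma adjusted p = 0.000846). On the same scale Cdh1 was below the marker mean in all 3 WT mice (-0.36, -0.40, and -0.40) and above it in all 3 Gm31629-/- mice (0.15, 0.56, and 0.41). The difference for Cdh1 was 0.76 (SE 0.19, limma adjusted p = 0.00569). Dsg2 differed by 0.65 (adjusted p = 0.0248), a call lost without Gm31629-/- mouse 1 (adjusted p = 0.0725), WT mouse 1 (0.0820), or WT mouse 3 (0.0932) in the same limma fit. The genes called lower as deposited were not called on this scale, where every gene was shifted alike. The part of epithelial content in their lower deposited values was not tested. Tjp3 differed by 0.03 (95% interval -0.38 to 0.43) and Marveld2 by 0.09 (-0.33 to 0.50), Jup by 0.28 (-0.10 to 0.66), and Dsc2 by -0.29 (-0.77 to 0.20).

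**Figure D3:**
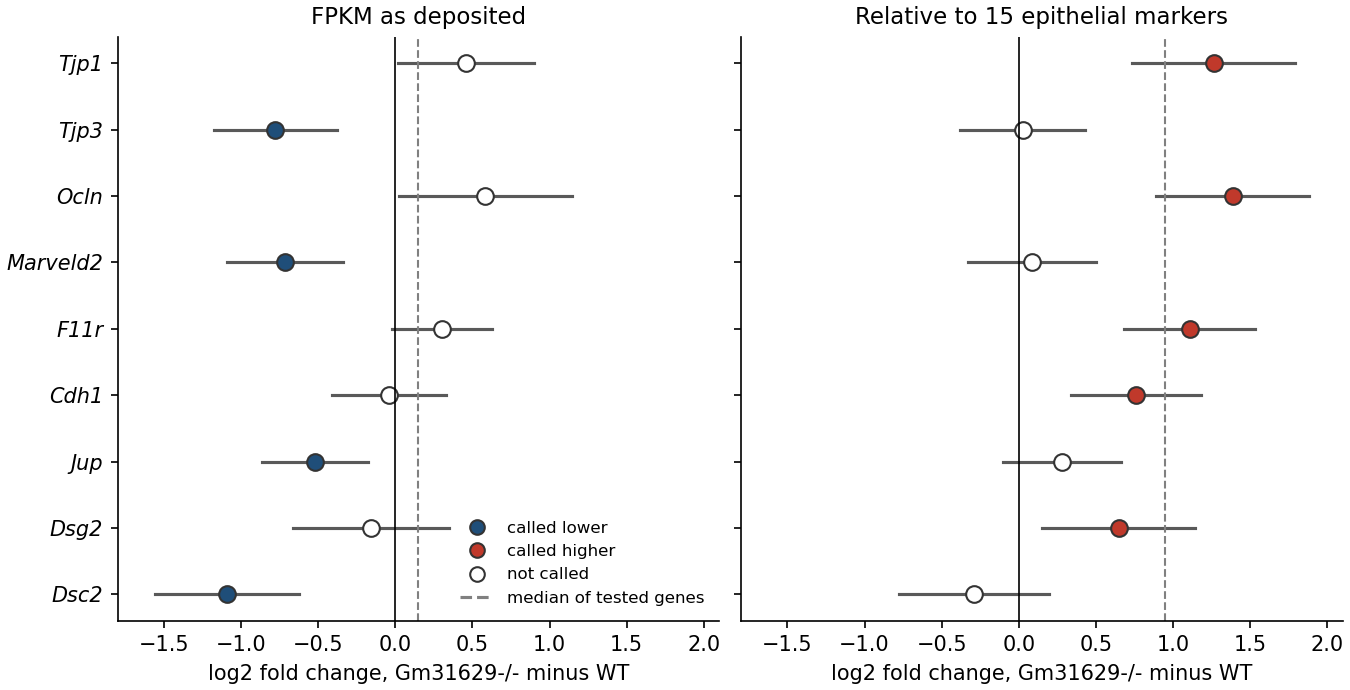
Log2 fold change (Gm31629-/- minus WT) of the 9 junction genes with 95% intervals from limma, from FPKM as deposited (left) and relative to 15 epithelial markers (right), with blue points called lower, red called higher, and open points not called. The dashed line is the median over all genes tested (0.15 left, 0.95 right), and by construction the genes keep their order in both panels, with Ocln highest and Dsc2 lowest.

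Ratios of partner genes within a library do not depend on its scaling, and they were compared for 5 pairs. The ratio Ocln/Marveld2 was 0.891, 1.22, and 0.698 in WT and 2.55, 2.33, and 2.26 in Gm31629-/- mice, so that tricellulin RNA was about level with occludin RNA in WT and the lesser of the pair in Gm31629-/- mice. The ratio Tjp1/Tjp3 was 0.138, 0.114, and 0.0912 in WT and 0.271, 0.356, and 0.206 in Gm31629-/- mice, with ZO-3 RNA above ZO-1 RNA in all 6. The ratio Dsg2/Dsc2 was 1.13, 1.48, and 1.34 in WT and 2.57, 2.51, and 2.59 in Gm31629-/- mice, which were nearly equal among themselves. On the log2(FPKM + 1) scale these differences were 1.30, 1.24, and 0.94. Smaller differences were found for Cdh1/Ctnna1 (0.34) and Jup/Ctnnb1 (-0.30), where Ctnna1 and Ctnnb1 encode α- and β-catenin. Jup/Ctnnb1 was 0.838, 0.838, and 0.991 in WT and 0.757, 0.604, and 0.809 in Gm31629-/- mice, the closest of the 5 pairs to an overlap. All 5 ratios separated the groups without overlap, whereas this held for 58.5% of the ratios of a junction gene to another tested gene. Each pair had a two-sided exact permutation p of 0.1 (n = 3 per group) and 0.1 after adjustment over 5 pairs, which is the smallest p that 3 against 3 mice allow, so none could pass 0.05.

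**Figure D4:**
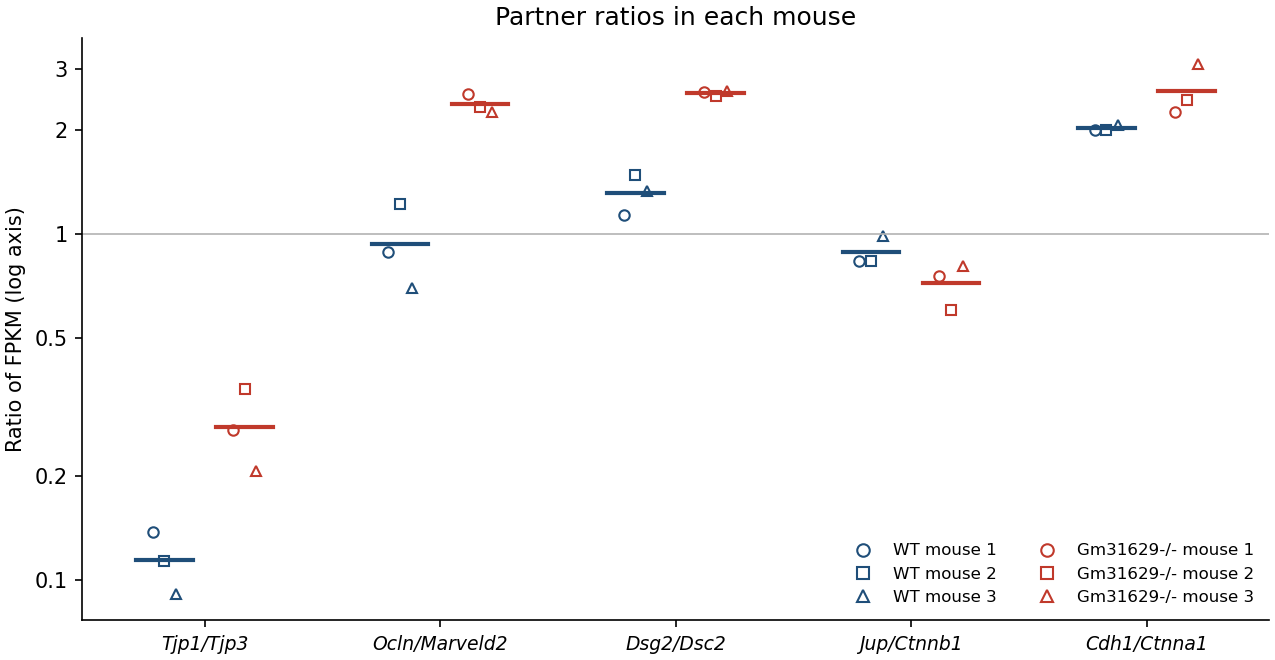
Ratio of FPKM (log axis) of 5 pairs of junction partners in each mouse, WT in blue and Gm31629-/- in red, with symbols for mouse number and a bar at the group mean. The 3 Gm31629-/- mice lie above the 3 WT mice for 4 pairs and below them for Jup/Ctnnb1, and Dsg2/Dsc2 is 2.51 to 2.59 in Gm31629-/- mice.

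The wider set of junction genes was described by lists, beside the 14.6% of all genes tested called lower and 28.9% called higher. Of 17 tight junction partners, 4 were called higher, 7 lower, and 6 not called, with a median log2 fold change of -0.14. The fallers with the strongest change were Prkcz, an atypical protein kinase C of the polarity complex (13.2, 19.7, and 16.7 FPKM in WT, 10.6, 4.16, and 8.02 FPKM in Gm31629-/- mice, log2 fold change -1.09, adjusted p = 0.0261), and Ybx3, a DNA- and RNA-binding protein that ZO-1 holds at the junction (79.2, 69.6, and 86.4 against 38.8, 38.9, and 34.0 FPKM, -1.05, adjusted p = 0.00174). Ildr1, an angulin that recruits tricellulin to tricellular contacts, fell alongside Marveld2. It went from 167, 157, and 151 FPKM to 96.4, 65.2, and 74.1 FPKM (-1.02, adjusted p = 0.00408). The polarity protein gene Crb3 fell by 0.49 on the log2 scale (adjusted p = 0.0216). Relative to the epithelial markers none of these fallers was called, at -0.29 (Prkcz), -0.25 (Ybx3), -0.22 (Ildr1), and 0.31 (Crb3). Of the 17 partners, 9 were called higher on that scale and 0 lower, against 68.5% and 1.81% of all genes tested. The risers with the strongest change on the log2(FPKM + 1) scale were Mpp5, which encodes the polarity scaffold PALS1 (3.29, 3.15, and 1.85 against 13.7, 7.58, and 6.90 FPKM, 1.43, adjusted p = 0.00730), and Mpdz, a multi-PDZ scaffold also found outside epithelia (0.0217, 0.0268, and 0.0214 against 1.68, 2.17, and 1.03 FPKM, 1.34, adjusted p = 0.00216). This scale understates changes of low genes. As ratios of mean FPKM the rises were 3.40 for Mpp5 and 69.8 for Mpdz, whose WT values rest on 5 to 6 fragments.

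Of 11 tested adherens junction partners, 1 was called lower and 0 higher, with a median of -0.28. Those of highest level were not called, with Cdh17, an intestinal cadherin, at 305, 327, and 262 FPKM in WT and 242, 251, and 236 FPKM in Gm31629-/- mice (log2 fold change -0.29, adjusted p = 0.156), Ctnna1 at -0.39 (adjusted p = 0.0569), and Ctnnb1 at -0.22 (adjusted p = 0.321). The 1 called gene was Nectin1, an immunoglobulin-type adhesion molecule (3.98, 3.80, and 4.34 against 2.64, 2.76, and 2.69 FPKM, -0.45, adjusted p = 0.0401). Nectin1 was not called relative to the epithelial markers (0.36, limma adjusted p = 0.173).

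The desmosome partners had the lowest median of the partner lists, at -0.68, with 4 of 8 tested genes called lower and 0 higher. The 15 epithelial markers had a median of -0.70, with 9 called lower, and 14.6% of all genes tested were called lower. Relative to the epithelial markers the desmosome partners had a median of 0.12, with 1 called higher and 1 lower. Pkp1, which encodes plakophilin 1, fell from 8.35, 7.59, and 10.4 FPKM in WT to 0.270, 0.831, and 0.542 FPKM in Gm31629-/- mice (log2 fold change -2.67, SE 0.20, limma adjusted p = 0.000281), and it was also called lower relative to the epithelial markers (-1.86, adjusted p = 0.000431). It made up 6.67% to 9.66% of the summed plakophilin FPKM in WT and 0.433% to 1.13% in Gm31629-/- mice. Dsp, which encodes desmoplakin, the link to keratin filaments, fell from 79.8, 104, and 77.8 FPKM to 45.1, 34.4, and 45.3 FPKM (-1.05, adjusted p = 0.00422). Pkp3 fell by 0.65 on the log2 scale (adjusted p = 0.0139), while Perp, the partner of highest level, was at 146, 176, and 134 against 124, 106, and 118 FPKM (-0.38, adjusted p = 0.0879). Relative to the epithelial markers Dsp (-0.25, limma adjusted p = 0.237) and Pkp3 (0.15, limma adjusted p = 0.538) were not called. Over the tight junction, adherens junction, and desmosome partners together, 4 were called higher and 12 lower as deposited. After median-ratio scaling 4 were called higher and 21 lower.

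**Figure D5:**
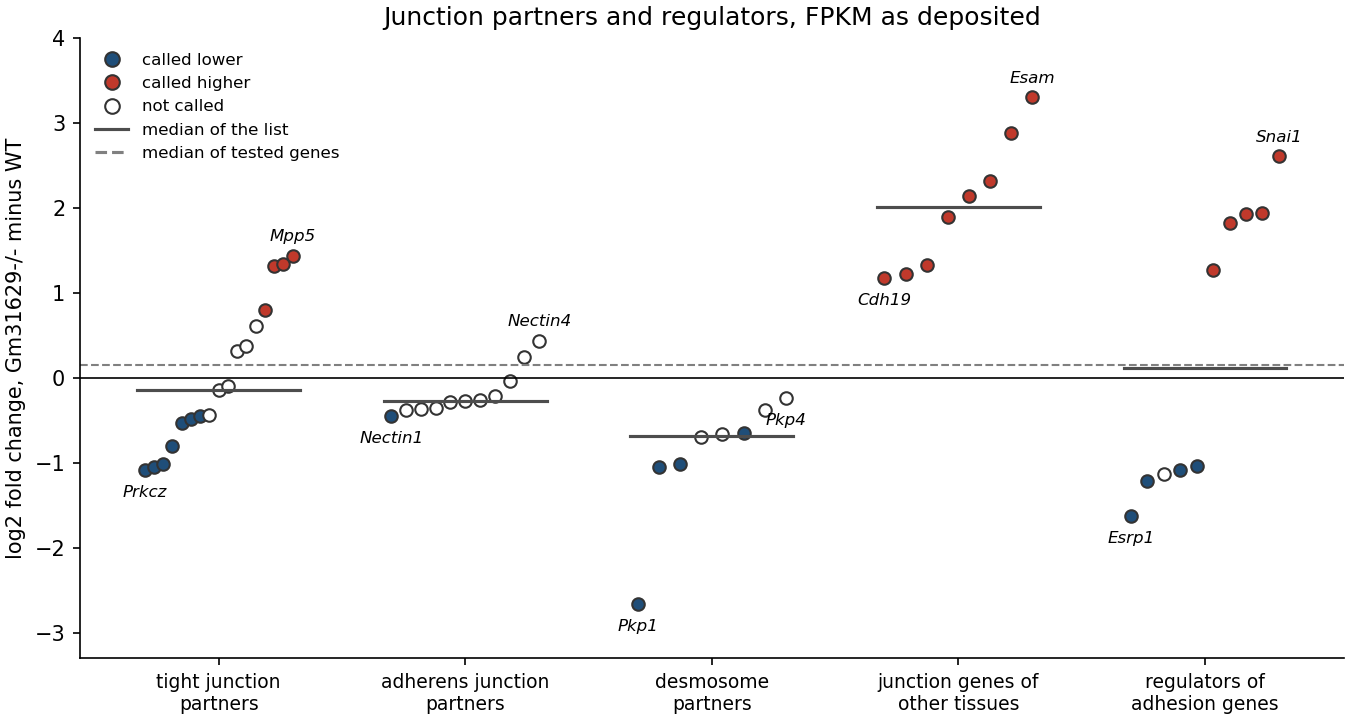
Log2 fold change (Gm31629-/- minus WT, FPKM as deposited) of each tested gene in 5 lists, with blue points called lower, red called higher, open points not called, a gray bar at the median of the list, and a dashed line at the median over all genes tested (0.15). Medians are -0.14, -0.28, and -0.68 for the tight junction, adherens junction, and desmosome partners and 2.01 for junction genes of other tissues.

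Junction genes of other tissues, which epithelial cells lack or hold at low levels, were at 1.30 to 3.87 FPKM in sum in WT and at 33.6 to 69.2 FPKM in Gm31629-/- mice, and 8 of 8 tested were called higher. Esam, an adhesion molecule of endothelium, was at 0.415, 1.22, and 0.612 FPKM in WT and 10.1, 22.3, and 17.9 FPKM in Gm31629-/- mice (log2 fold change 3.30, adjusted p = 0.000496), and Cdh5, VE-cadherin, was at 0.437, 1.68, and 0.747 against 7.10, 22.7, and 13.0 FPKM (2.88, adjusted p = 0.00206). Jam2, a relative of F11r in endothelium, was at 0.147, 0.359, and 0.145 against 3.97, 7.05, and 4.43 FPKM (2.31, adjusted p = 0.000525). Cdh1 still made up 99.5% to 99.9% of the summed FPKM of 5 classical cadherins in WT and 92.5% to 96.6% in Gm31629-/- mice.

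Of 10 tested regulators of epithelial adhesion genes, 5 were called higher and 4 lower. The 5 higher genes were the repressors Snai1, Snai2, Zeb1, Zeb2, and Twist1, which are also expressed in stromal cells. Snai1 was at 0.400, 1.06, and 0.591 FPKM in WT and 2.75, 20.2, and 12.0 FPKM in Gm31629-/- mice (log2 fold change 2.61, adjusted p = 0.0113), and Zeb1 was at 0.0685, 0.162, and 0.109 against 2.88, 4.79, and 2.42 FPKM (1.93, adjusted p = 0.000920). The 4 lower genes were Grhl2, Ovol2, Esrp1, and Esrp2, which are known to uphold the epithelial state. Esrp1, an epithelial splicing regulator, was at 58.8, 73.0, and 62.6 FPKM in WT and 21.5, 15.1, and 25.3 FPKM in Gm31629-/- mice (-1.63, adjusted p = 0.00134), and it was called lower relative to the epithelial markers too (-0.83, adjusted p = 0.00398). Esrp2 fell by 1.21 on the log2 scale (adjusted p = 0.00411). Relative to the markers Esrp2 (-0.41, limma adjusted p = 0.0930), Grhl2 (-0.24), and Ovol2 (-0.28) were not called. Ovol1 was at 13.0, 15.8, and 17.2 against 8.08, 2.67, and 11.3 FPKM (-1.13, adjusted p = 0.0647). Cdh1, a known target of the proteins of Snai1 and Zeb1, had a log2 fold change of -0.04 as deposited. It was -0.30 with median-ratio scaling and 0.76 relative to the epithelial markers, and a link to these repressors was not tested. Fibroblast markers rose with Snai1 and Zeb1 (10 of 10 called higher), as did markers of endothelium (10 of 10) and smooth muscle (11 of 11). Leukocyte (9 of 10), neuron and glia (9 of 10), and adipocyte markers (6 of 7) rose too. The part of these cell types in the values of the regulators and of Cdh1 was not tested.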

How the data were processed

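RNA-Seq of distal colon gave 1 library for each of 3 WT and 3 Gm31629-/- mice. As deposited, the values are FPKM made by the authors, in a single table with a column per mouse, and the submitters' processing notes name HISAT2 2.1.0, HTSeq 0.6.0, and GRCm38. The methods mention pooling of total RNA, yet the columns are per mouse and were treated as separate mice. The p-values therefore measure the spread between these libraries. The authors' own DEGseq comparison was not used.

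GENCODE M21 (GRCm38) supplied symbols and union exon lengths for 27488 identifiers. From FPKM, exon length, and depth, fragment numbers were recovered and rounded. Those of the junction genes lay up to 0.488 (Tjp3) from a whole number. Values of at most 20 fragments came out whole (within 0.1) in 96.3% to 97.2% of cases, and the depths were 18005882 to 18793797 fragments. Intervals and counting errors from fragments cover counting only.

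A linear model was fitted to log2(FPKM + 1) with limma 3.58.1 (R 4.3.3, trended eBayes, Benjamini-Hochberg adjustment) for 14657 genes with a mean of at least 0.5 FPKM, which understates changes of low genes. A call needs an adjusted p under 0.05. The same fit was run relative to 15 epithelial markers. Ratios were compared with two-sided exact permutation tests in scipy 1.17.1. Alternatives were a mean of at least 5 FPKM or no filter, a pseudocount of 0.1, TPM scale, median-ratio scaling, eBayes without a trend, the replicate block, leaving out each library, voom on recovered fragments, and 11 markers without the keratins. The fit was tested on simulated data. The members and lists were chosen with earlier results of these data known. Named genes are the 9 members. Per list they also include the 3 of highest level and up to 2 strongest risers and 2 fallers among called genes. From each marker list the 2 of highest level were named. Epcam, Cdx2, Tspan8, Eif2s3y, Xist, and the remaining called regulators were chosen after their values were seen. A planned partner gene and its ratio are not reported here.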

Additional observations from a re-analysis of the deposited data

How the results depend on the processing

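The 4 lower calls among the junction genes (Dsc2, Tjp3, Marveld2, and Jup) were recomputed under 14 alternatives, and Dsc2, Tjp3, and Marveld2 were called in all 14, with log2 fold changes of -1.35 to -0.99, -1.04 to -0.68, and -0.96 to -0.58. Jup was called in 10 of 14. Relative to the epithelial markers, 5 were called higher in each alternative with all 6 libraries and 4 to 5 without any 1 library. The count of junction genes called lower was 3 to 4 and of those called higher 0 to 1 without any 1 library, the 1 being Ocln without WT mouse 2. Same-numbered mice did not deviate together (r = 0.0358, -0.108, and 0.0141), and the labels give no shared litter or day, so the numbers do not pair the samples. With the replicate number as a replicate block, 0 junction genes were called higher and 3 lower, Jup being lost with an adjusted p of 0.0713, 5 were called higher relative to the markers, and 3875 genes were called higher and 1514 lower in all. Under the same replicate block the partner lists gave 7 lower calls, and the ratio differences had an exact sign-flip permutation p of 0.25, the smallest that 3 pairs allow.

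Over all genes, 1405 were called higher with a mean of at least 5 FPKM, where fewer genes were tested (7242), and 3635 were called lower with median-ratio scaling. Without any 1 library 2793 to 4219 were called higher and 981 to 1977 lower. Partner genes called higher were 7 without a filter, and called lower 21 with median-ratio scaling and 6 to 11 without any 1 library. Without any 1 library the log2 fold change of Cdh1 was -0.13 to 0.044 (turned without Gm31629-/- mouse 1), that of Dsg2 -0.31 to 0.015 (turned without WT mouse 2), and that of Tjp3 relative to the markers -0.063 to 0.088 (turned without WT mouse 1 and, at -0.023, Gm31629-/- mouse 3), with no call in any of these. The cause of these changes was not tested. The 5 ratio differences kept their sign in every alternative run. Of 415 recomputed values, 4 changed sign, 7 lost and 1 gained a call, and 11 counts of calls moved. The other fold changes kept direction and side of the threshold. The other counts stayed within a fixed factor of the main count, and ratios were compared by sign only. With 3 mice per group no ratio could pass 0.05, and values from 1 to 3 fragments are not resolved.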
